A study of Caenorhabditis elegans with 2 samples.

Results

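MicroRNA genes are the genomic loci of short RNAs that pair with messenger RNAs and repress them. Here they are the 261 genes that Ensembl release 115 places on the nuclear chromosomes of Caenorhabditis elegans (assembly WBcel235, which ce11 names) with the biotype miRNA, out of 46890 annotated nuclear genes of all kinds. They were examined for binding of JUN-1, the worm Jun protein, a basic leucine zipper transcription factor of the AP-1 family. Binding was mapped by ChIP-seq, the sequencing of DNA recovered with the protein by immunoprecipitation from chromatin. A microRNA gene was called bound when the summit of a deposited peak lay from 1000 bp upstream to 200 bp downstream of its annotated start, its promoter window here. A summit in a window records position and does not show regulation.

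The study holds 1 group of 2 biological replicates, both of whole first-stage (L1) larvae of strain OP234, mixed in sex, with the genotype unc-119(ed3) III and the insertion wgIs234. The protein measured was an eGFP-tagged jun-1 product carried by that insertion, so native JUN-1 was not measured directly. Whole animals were used, and the tissues that contributed to a peak cannot be told apart. Both replicates were compared with 1 shared control alignment, there is no second condition, and the data are peak lists without read counts, so sequencing depth is unknown and no test over samples can be made. The list of replicate 1 held 28101 peaks, that of replicate 2 held 30000 and that of the pooled replicates held 19646. The list thresholded by the irreproducible discovery rate (IDR, a measure of how well peak ranks repeat between replicates) held 2305, and these were the 2305 strongest pooled peaks with the same signals.

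A microRNA is cut from a hairpin in a longer primary transcript. One or both arms of the hairpin give a mature RNA, and bases 2 to 8 of it, the seed, carry most of the target recognition. MicroRNAs with the same seed form a family and can repress overlapping targets. In C. elegans the founding microRNAs lin-4 and let-7 time larval development: lin-4 represses lin-14 and lin-28 from the end of the first larval stage, and let-7 acts at the passage to the adult. Many microRNA genes stand alone, some are transcribed together as clusters, and others lie in introns of protein-coding genes.

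The bound genes included most of 3 seed families, and mature sequences of these are shown because the results turn on them. They were read from the RefSeq copy of WBcel235 and are written 5′ to 3′ as RNA, with the seed in capitals. The mir-51 family, which acts in embryonic development and has the seed of the conserved miR-100 family, had 5 of 6 genes bound, all except mir-51. The seed AUGACAC belonged to 5 genes, of which the 4 in the mir-229 cluster were bound and mir-63 was not. The seed UUGUACU belonged to mir-238, mir-239.1 and mir-239.2, all 3 of them bound, and these genes are known for effects on adult lifespan. The seeds of lin-4 and of the bound let-7 relative mir-241 are given with those of mir-237, let-7, mir-48 and mir-84, which were unbound.
mir-51 5p: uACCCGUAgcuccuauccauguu
mir-52 5p: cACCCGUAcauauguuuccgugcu
mir-53 5p: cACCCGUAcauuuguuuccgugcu
mir-54 3p: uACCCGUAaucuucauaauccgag
mir-55 3p: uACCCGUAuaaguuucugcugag
mir-56 3p: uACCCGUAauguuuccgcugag
mir-229 5p: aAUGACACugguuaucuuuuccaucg
mir-64 5p: uAUGACACugaagcguuaccgaa
mir-66 5p: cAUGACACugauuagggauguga
mir-63 3p: uAUGACACugaagcgaguuggaaa
mir-238 3p: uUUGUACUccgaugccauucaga
mir-239.1 5p: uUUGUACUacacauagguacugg
mir-239.2 5p: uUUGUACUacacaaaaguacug
lin-4 5p: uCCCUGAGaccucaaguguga
mir-237 5p: uCCCUGAGaauucucgaacagcu
let-7 5p: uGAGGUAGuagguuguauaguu
mir-241 5p: uGAGGUAGgugcgagaaauga
mir-48 5p: uGAGGUAGgcucaguagaugcga
mir-84 5p: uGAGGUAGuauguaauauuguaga

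The DNA under 6 of the peaks upstream of these genes is shown for the same reason. Each is the 200 bp window centred on a summit of the IDR-thresholded list, read from RefSeq WBcel235 on the plus strand. Capitals mark the motifs searched on both strands, which are described with the motif counts. The window upstream of mir-54, mir-55 and mir-56 has the E-box CACGTG in capitals. Both windows between mir-239.1 and mir-239.2 hold TGAGTCA, a form of the AP-1 element, and the second also holds TATAAA. The mir-238 window holds the CRE element TGACGTCA and TATAAA. The mir-241 window holds TATAAA on both strands, and the lin-4 window holds none of the searched motifs.
mir-54/mir-55/mir-56, chrX:13145315-13145514: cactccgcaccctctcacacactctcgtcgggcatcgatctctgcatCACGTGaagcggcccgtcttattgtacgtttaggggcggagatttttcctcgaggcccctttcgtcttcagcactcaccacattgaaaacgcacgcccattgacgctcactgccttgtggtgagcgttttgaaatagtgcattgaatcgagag
mir-239.1/mir-239.2, stronger peak, chrX:11791484-11791683: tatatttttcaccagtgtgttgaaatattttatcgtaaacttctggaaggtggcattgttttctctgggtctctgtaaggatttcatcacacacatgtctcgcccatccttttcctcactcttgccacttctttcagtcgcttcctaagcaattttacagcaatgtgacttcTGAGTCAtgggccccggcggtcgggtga
mir-239.1/mir-239.2, weaker peak, chrX:11792026-11792225: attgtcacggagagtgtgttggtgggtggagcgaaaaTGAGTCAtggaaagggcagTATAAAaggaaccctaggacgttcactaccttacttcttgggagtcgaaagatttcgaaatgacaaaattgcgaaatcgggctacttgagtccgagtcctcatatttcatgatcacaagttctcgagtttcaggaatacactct
mir-238, chrIII:8867500-8867699: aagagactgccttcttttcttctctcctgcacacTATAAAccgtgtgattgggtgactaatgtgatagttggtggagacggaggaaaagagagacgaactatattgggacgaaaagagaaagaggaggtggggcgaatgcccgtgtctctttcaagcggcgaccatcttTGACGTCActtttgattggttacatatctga
mir-241, chrV:14366639-14366838: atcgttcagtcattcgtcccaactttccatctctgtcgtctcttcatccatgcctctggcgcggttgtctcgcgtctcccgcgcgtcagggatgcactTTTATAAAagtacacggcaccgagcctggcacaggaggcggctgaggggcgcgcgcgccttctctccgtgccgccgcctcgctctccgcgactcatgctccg
lin-4, chrII:5901685-5901884: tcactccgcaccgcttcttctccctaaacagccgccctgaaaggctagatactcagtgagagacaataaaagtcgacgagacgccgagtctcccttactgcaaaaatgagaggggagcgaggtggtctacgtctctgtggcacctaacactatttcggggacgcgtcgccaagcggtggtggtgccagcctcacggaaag

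JUN-1 peaks were found at 31 of the 261 microRNA genes (11.9%, 95% Wilson interval 8.49% to 16.4%). The same window held a summit for 5.89% of all annotated nuclear genes and for 8.42% of protein-coding genes. Among all annotated nuclear genes except the 15363 piRNA genes, of which 1.21% were bound, the share was 8.18%. The interval treats genes as independent, which neighbours in a cluster are not: counted by locus, with genes on 1 strand and at most 2000 bp apart joined, 24 of 222 loci were bound (10.8%). Among other non-coding genes, the window held a summit for 32.1% of snoRNA, 21.2% of tRNA and 13.95% of snRNA genes. The share was 9.28% of lincRNA genes and 7.21% of genes with the biotype ncRNA. In this count the microRNA share was above that of protein-coding genes and below those of snoRNA and tRNA genes. The snRNA and lincRNA shares lay within the microRNA interval, and the protein-coding share lay just under its lower end. Many peaks lay nearer to some other start: when a summit counted for the closest annotated start alone, 12 microRNA genes kept one (4.60%), beside 3.38% of all genes and 5.18% of protein-coding genes, so that the order of microRNA and protein-coding genes turned. By that count 19 genes were lost, among them lin-4, mir-241, mir-2, mir-71, mir-58.1, mir-239.1 and mir-239.2. From the mir-51 family mir-52, mir-54, mir-55 and mir-56 were lost, which left mir-53.

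The less strict lists held peaks at many more microRNA genes, background peaks included. A pooled-list summit lay in the window of 102 microRNA genes (39.1%), beside 27.5% of all genes. Replicate 1 alone gave 122 genes (46.7%, beside 35.1%) and replicate 2 gave 117 (44.8%, beside 36.4%). Both replicate lists held a summit in the window of 88 genes. Of the 261 genes, 71 had a pooled peak but none in the IDR-thresholded list, 50 had a peak in replicate lists only, and 109 had none in any list. For the 88 genes and for this split, no share over all genes was counted.

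The 31 genes were served by 26 distinct peaks. Their signal, in the authors' units of unstated scale, ran from 30.1 to 158 with a median of 49.8, beside 44.7 over all IDR-thresholded peaks. Of the 26, 14 lay above the overall median and 12 below it, and 3 lay in the top 10%, which began at 107. In replicate 1 all 26 were overlapped by a peak, with a median signal of 29.1, and in replicate 2 all except the mir-238 peak were, with a median of 19.5. A peak among the 2305 strongest of each replicate overlapped 19 of the 26 (73.1%), beside 70.2% of all IDR-thresholded peaks. Peaks at microRNA genes were thus neither strong nor weak as a class, and they recurred in the replicates about as often as other IDR-thresholded peaks.

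**Figure D1:**
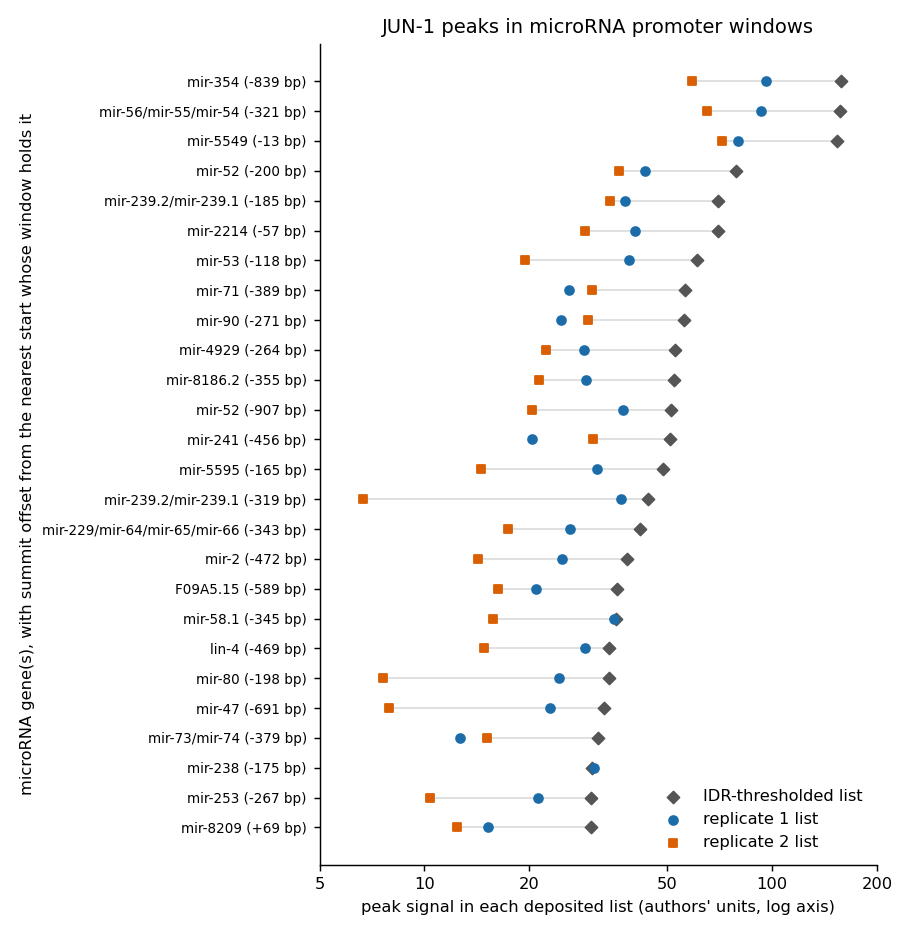
Signal of the 26 JUN-1 peaks in microRNA promoter windows, 1 row per peak in order of signal, on a log axis in the authors' units. Diamonds stand for the IDR-thresholded list, circles for replicate 1 and squares for replicate 2, with the summit's offset from the nearest microRNA start whose window held it in brackets; 3 peaks, at mir-354, mir-54/55/56 and mir-5549, stand above 150 and the rest lie at or under 78.8, and mir-238 has no square.

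The 3 strongest peaks lay at mir-354, at the mir-54/55/56 cluster and at mir-5549, and both replicates had them high. At mir-354 the signal was 158 in the IDR-thresholded list, 96.0 in replicate 1 and 59.0 in replicate 2. That summit was 839 bp upstream of mir-354, which lies in an exon of the ribosomal protein gene rps-20, and it was also in the windows of rps-20 and ekl-4. At mir-5549 the signal was 154, with 80.0 in replicate 1 and 71.7 in replicate 2. This summit was 13 bp upstream of mir-5549 and also lay in the windows of eef-1A.1, a translation elongation factor gene, and rfc-4, a replication factor C subunit gene. A window of a protein-coding gene held the summit of only 4 of the 26 peaks, the other 2 being those at mir-8186.2 (signal 52.1, shared with gmeb-1) and at mir-253 (30.1, shared with its host F44E7.5). Over all IDR-thresholded peaks this share was 55.4%.

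The mir-51 family had the highest signals among the seed families, at 3 loci on 2 chromosomes. The peak at chrX:13145243-13145586 had a signal of 157, with 93.1 in replicate 1 and 65.03 in replicate 2. Its summit lay 321 bp upstream of mir-54 and 628 bp upstream of mir-56, so mir-54, mir-55 and mir-56 share 1 measurement. These 3 hairpins lie antisense in an intron of F09A5.3. F09A5.15, annotated within the mir-55 hairpin on the opposite strand, had a peak of its own at chrX:13144069-13144412 with the signal at 35.9, and 21.0 in replicate 1 and 16.3 in replicate 2. That weaker peak lay downstream of mir-56 and 589 bp upstream of F09A5.15.

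Further members of the mir-51 family are on chromosome IV. mir-52 (chrIV:14034008-14034107, plus strand) had 2 peaks. The nearer, 200 bp upstream, had a signal of 78.8, with 43.2 in replicate 1 and 36.3 in replicate 2. The farther, 907 bp upstream, had 51.1, with 37.4 and 20.5. Both peaks also lay in windows of annotated ncRNA genes around mir-52. mir-53 (chrIV:11027593-11027691, minus strand) had a peak 118 bp upstream with the signal at 60.8, and 38.8 in replicate 1 and 19.5 in replicate 2. mir-51 lies downstream of mir-53 on the same strand, and the mir-53 summit is 1697 bp upstream of it. In its own window mir-51 had only weaker peaks, of which the strongest had 20.7 in the pooled list, 12.7 in replicate 1 and 10.8 in replicate 2. All 3 loci of the family, counting mir-51 and mir-53 as 1 locus, were therefore bound.

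**Figure D2:**
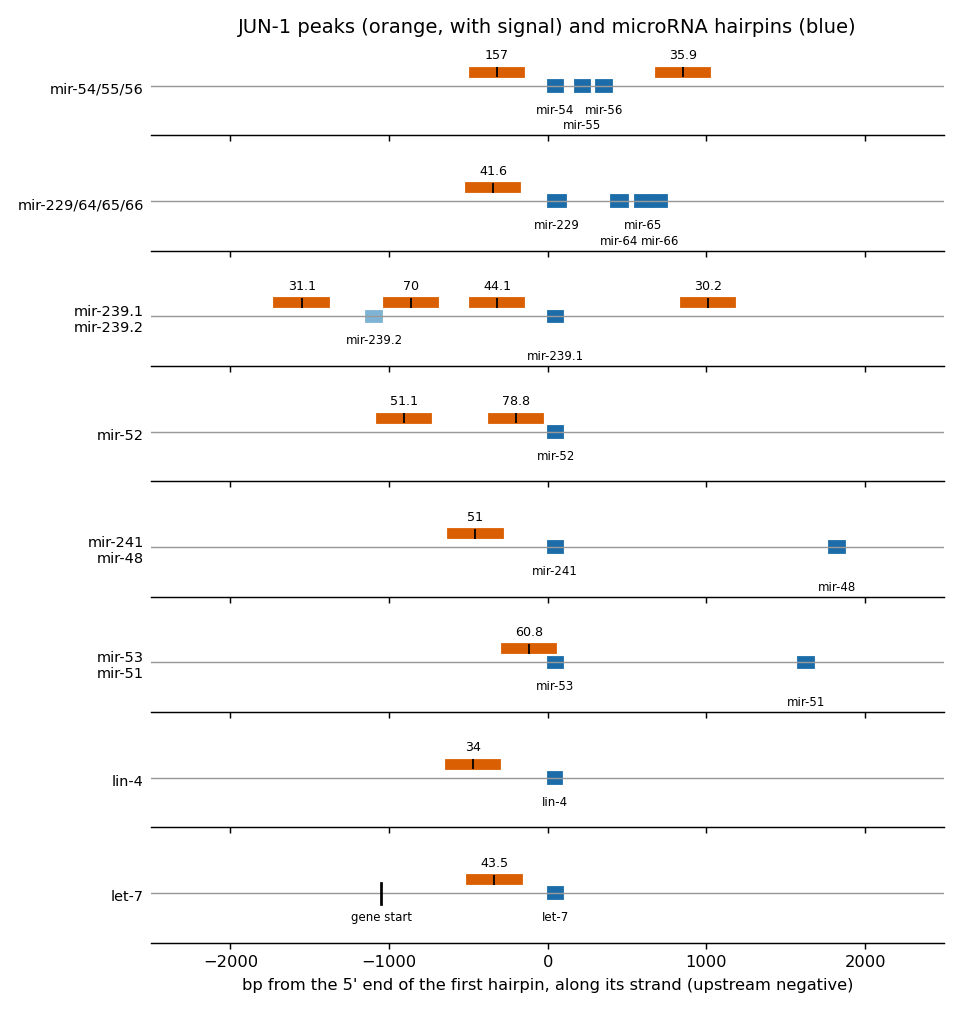
Positions of IDR-thresholded JUN-1 peaks (orange bars with the summit as a black tick and the signal above) and microRNA hairpins (blue; pale blue on the opposite strand) at 8 loci, in bp from the 5′ end of the first hairpin along its strand. Each locus has at least 1 peak upstream of the first hairpin, 2 lie between the divergent mir-239.1 and mir-239.2, and at let-7 the peak of 43.5 lies between the annotated gene start (black bar) and the hairpin; F09A5.15, which overlaps mir-55 on the opposite strand, is not drawn, and the stronger let-7 peak farther upstream lies outside the map.

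The mir-238 and mir-239 genes were bound on 2 chromosomes, and their peaks were the only ones of the 26 to hold an AP-1 or CRE element within the 200 bp window. mir-239.1 and mir-239.2 are divergent neighbours on chromosome X and share 2 peaks between them. The stronger, at chrX:11791412-11791755, had a signal of 70.04, with 37.7 in replicate 1 and 34.2 in replicate 2. The weaker, at chrX:11791954-11792297, had 44.1, with 36.7 in replicate 1 and 6.67 in replicate 2. The ratio of replicate 1 to replicate 2 was thus 1.10 at the stronger peak and 5.50 at the weaker, beside a median of 1.37 over all IDR-thresholded peaks. Both summits between the mir-239 genes also lay in the windows of the ncRNA gene C34E11.9 and the snoRNA gene C34E11.20. The stronger was 161 bp from the C34E11.9 start and the weaker 11 bp from the C34E11.20 start, each the nearest annotated start. The mir-238 peak, 175 bp upstream at chrIII:8867428-8867771, had 30.4 in the IDR-thresholded list and 30.7 in replicate 1, and no peak of replicate 2 overlapped it. mir-80 and mir-90 lie near mir-238 on chromosome III. Their own peaks had signals of 33.9 (24.5 in replicate 1 and 7.62 in replicate 2) and 55.8 (24.8 and 29.5).

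The cluster of mir-229, mir-64, mir-65 and mir-66, on chromosome III in an intron of gcn-1, had 1 peak. gcn-1 encodes a regulator of translation. The summit lay 343 bp upstream of mir-229 and 999 bp upstream of mir-66, the last of the 4, just inside its window. The signal was 41.6, with 26.2 in replicate 1 and 17.4 in replicate 2. mir-63, which has the same seed and lies on chromosome X, had no peak in any list, and its nearest IDR-thresholded summit was 118771 bp away. The mir-73/mir-74 cluster on chromosome X also shared 1 peak, as did mir-54/55/56: at mir-73/mir-74 its signal was 31.7, with 12.6 in replicate 1 and 15.1 in replicate 2.

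Among the genes that time development, lin-4 was bound. lin-4 lies at chrII:5902254-5902347 on the plus strand in an intron of F59G1.4. Its peak, chrII:5901613-5901956, had its summit 469 bp upstream. The signal was 34.0, with 29.0 in replicate 1 and 14.8 in replicate 2, in the lower part of the list. The promoter of the host F59G1.4 held no IDR-thresholded summit. mir-237, which shares the lin-4 seed, had no peak in any list in its window, and the nearest IDR-thresholded summit lay 1666 bp downstream of its start with a signal of 32.0.

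let-7 had no IDR-thresholded summit in its window, and this depends on where its start is placed. Ensembl starts the gene 1050 bp upstream of the annotated hairpin, at the right end of chrX:14743590-14745321 on the minus strand. From that start, replicate 1 had 1 weak peak in the window with a signal of 4.40, and the pooled and replicate 2 lists had none. A peak at chrX:14744435-14744778 had its summit 714 bp downstream of the gene start and 336 bp upstream of the hairpin. Its signal was 43.5, with 22.1 in each replicate, and its summit window held CTGCGTCTC. A second, stronger peak lay 1838 bp upstream of the gene start with the signal at 77.5, and 39.4 in replicate 1 and 38.7 in replicate 2. The annotated let-7 gene overlaps an exon of the protein-coding gene C05G5.7 on the same strand. The promoter window of C05G5.7 also held an IDR-thresholded summit. When the hairpin start was used for all genes, a choice made after the values were seen, let-7 was gained and no gene was lost, giving 32. The hairpin and gene starts differ for 7 of the 261 genes.

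The let-7 family genes mir-48, mir-84 and mir-241 act in larval timing at an earlier stage than let-7. mir-241 was bound, with a signal of 51.0 at chrV:14366567-14366910, 456 bp upstream, 20.4 in replicate 1 and 30.5 in replicate 2. mir-48 follows mir-241 on the same strand, so that the mir-241 summit is 2230 bp upstream of it. In its own window it had a weak peak of 9.55 in the pooled list, 5.84 in replicate 1 and 5.42 in replicate 2. mir-84 had none in its window in any list, and its nearest IDR-thresholded summit was 2327 bp upstream with a signal of 56.6. Of the other members, mir-795, which has the let-7 seed, had only 4.56 in replicate 1 and 4.67 in replicate 2, and mir-793 and mir-794 had none in any list. lsy-6, which sets the left-right difference of a pair of taste neurons, had none in any list, and its nearest IDR-thresholded summit was 46699 bp away.

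In the mir-35 and mir-58 families fewer genes were bound. The mir-35 family, needed in the embryo, had 0 of 8 genes bound in 2 loci. All 8 genes had weaker peaks in each list, from 5.80 to 9.22 in replicate 1 and from 7.72 to 9.98 in replicate 2. The mir-58 family, related to the fly bantam microRNA and abundant in worms, had 2 of 5 genes bound. These 5 were chosen by name, and mir-1834, also on the list, was not matched by symbol. By seed, GAGAUCA was shared by mir-80, mir-81, mir-82, mir-58.2, mir-2209.1 and Y73B6A.17, with 1 of 6 bound, and mir-58.1 has GAGAUCG. mir-58.1 had a peak 345 bp upstream with the signal at 35.7, and 35.03 in replicate 1 and 15.8 in replicate 2, and mir-80 was the other. mir-58.2 had 11.9 in the pooled list, with 7.88 in replicate 1 and 7.21 in replicate 2. mir-82 had 10.5, with 7.14 and 5.01, and mir-81 had none in any list.

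**Figure D3:**
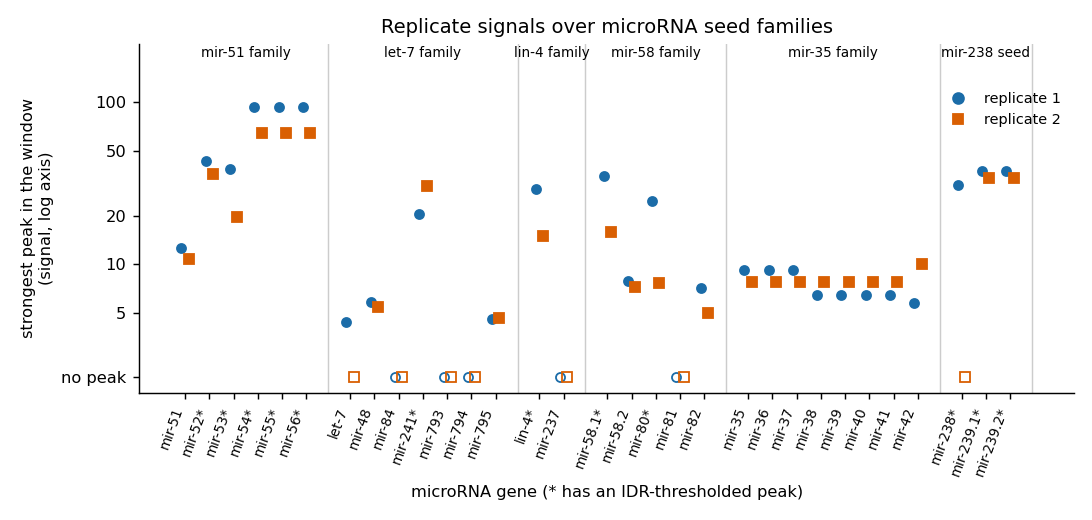
Strongest peak signal in the promoter window of each gene of 6 seed groups, in replicate 1 (circles) and replicate 2 (squares), on a log axis in the authors' units. Open symbols stand for no peak and an asterisk for an IDR-thresholded peak; mir-54, mir-55 and mir-56 share the highest values, 93.1 and 65.03, while the mir-35 genes lie under 10 in both replicates.

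Across all mature arms, 46 seeds were shared by more than 1 gene and 4 of these had at least 2 bound genes. The fourth, beside the 3 printed, was GGCAAGA, with mir-73 and mir-74 bound of 6 genes. In each of the 4, cluster neighbours or divergent neighbours that share a peak account for at least 2 of the bound genes, so genes of a family are not independent counts.

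The bound share was higher among same-strand intronic genes than among genes outside protein-coding genes. Of the 68 microRNA genes in introns and on the host's strand, 13 were bound (19.1%, 95% Wilson interval 11.5% to 30.0%), in 10 of 64 loci. Of 152 genes outside protein-coding genes, 13 were bound (8.55%, 5.07% to 14.1%). Antisense genes in introns had 4 of 30 bound (13.3%). These intervals overlap, and the difference between groups was not tested. For the 9 hosts of bound same-strand intronic genes, 4 also had a summit in the host's own promoter window, beside 5 of 53 hosts whose intronic microRNAs were unbound. Among the 4, F44E7.5 was counted through the same peak that made its microRNA mir-253 bound. Of all protein-coding genes, 8.42% had a summit in the window.

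At most of these introns the peak near the microRNA was separate from the host's promoter. ppfr-1, a regulatory subunit gene of protein phosphatase 4, hosts mir-2 and mir-71 and had a promoter peak of its own. The ppfr-1 start is 17117 bp from that of mir-2 and 9962 bp from that of mir-71. gcn-1 lay likewise, with its start 20507 bp from mir-229. B0361.11, the host of mir-2214 (signal 69.97, 40.3 in replicate 1 and 29.0 in replicate 2), started 1116 bp away. In the remaining case, F44E7.5 with mir-253, the host's start was 306 bp away and the peak was the same one. The hosts with no promoter summit were F59G1.4 (lin-4), E01G4.3 (mir-4929), K01F9.2 (mir-90), phkb-1, a phosphorylase kinase subunit gene (mir-58.1), and F09A5.3 (F09A5.15). mir-5595, antisense in the chromatin remodelling gene nurf-1, had a signal of 48.6, with 31.4 in replicate 1 and 14.6 in replicate 2.

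Clustered genes had a larger bound share than single genes, and neighbours in a cluster can share a peak. In clusters 13 of 61 genes were bound (21.3%), or 6 of 22 loci, beside 18 of 200 single genes (9%). A grouping chosen after the values were seen set the microRNAs numbered below 300, with lin-4, let-7 and lsy-6, against the rest. The former had 23 of 107 bound (21.5%, 95% Wilson interval 14.8% to 30.2%) and the latter 8 of 154 (5.19%, 2.66% to 9.92%). In the pooled list these shares were 56.1% and 27.3%. mir-354, mir-5549, mir-2214, mir-4929, mir-5595, mir-8186.2, mir-8209 and F09A5.15 made up the second group's 8.

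By chromosome, III had the highest share, 9 of 27 genes (33.3%), beside 11.3% of all annotated genes on III. Chromosome X held 9 of 74 (12.2%), beside 7.94% of all genes there. Chromosomes I and II held 4 of 33 (12.1%) and 4 of 49 (8.16%), near the 10.5% and 7.93% of all genes there. Chromosomes IV and V held 3 of 50 (6.0%) and 2 of 28 (7.14%), beside 2.77% and 5.71% of all genes there. The protein-coding shares were 10.9% on I, 7.60% on II, 11.9% on III, 7.95% on IV, 6.03% on V and 8.35% on X. Only on IV did the microRNA share lie below the protein-coding share. On every chromosome except III the Wilson interval of the microRNA share held the protein-coding share. On IV that interval ran from 2.06% to 16.2%, so no difference can be read from its 3 bound genes. On III the 9 genes form 5 of the 22 loci there, with 4 of the genes in the mir-229 cluster.

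**Figure D4:**
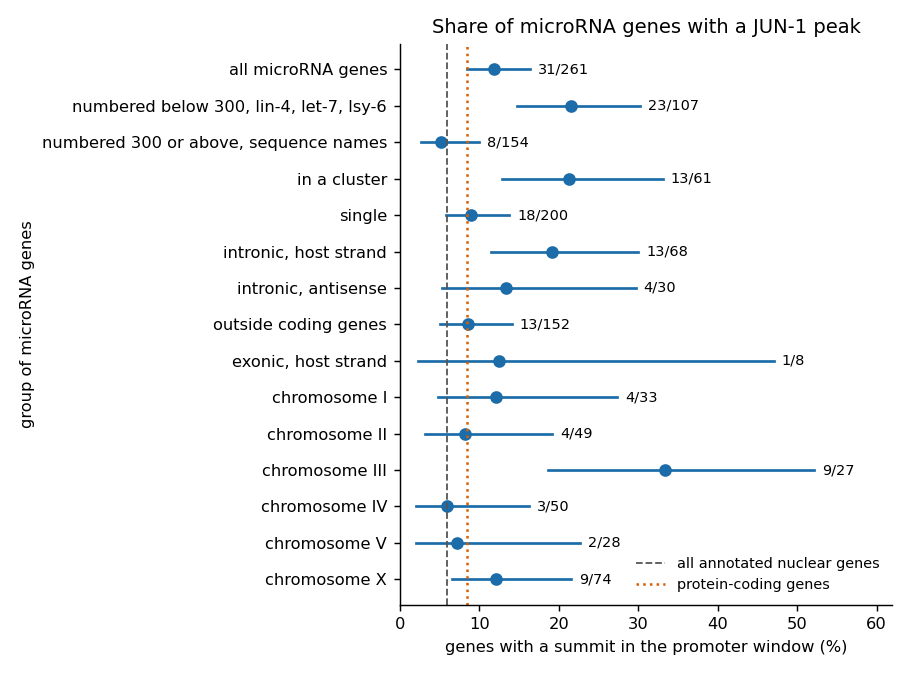
Percent of microRNA genes with an IDR-thresholded summit in the promoter window, by group, with 95% Wilson intervals as lines and the counts beside them. The dashed line marks all annotated nuclear genes (5.89%) and the dotted line protein-coding genes (8.42%). The whole interval lies right of both lines for all, clustered, same-strand intronic and numbered-below-300 microRNA genes, and for those on chromosome III. The intervals treat genes as independent, which genes sharing a peak are not, and the lower end for all microRNA genes, 8.49%, is close to the dotted line. On chromosome III itself the shares were 11.3% of all genes and 11.9% of protein-coding genes.

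Most of the peaks lay upstream of the hairpins. Measured from the nearest microRNA start whose window held it, the summit was upstream for 25 of 26 peaks, at a median offset of -320 bp, and for 21 it was within 500 bp upstream. The mir-8209 summit lay downstream of the annotated gene start but 88 bp upstream of the hairpin. The F09A5.15 summit was upstream of F09A5.15 but also 546 bp downstream of the nearer mir-56. No bound gene had a summit inside its own hairpin. Of the 26 peaks, 24 had the common length of 344 bp. The nearest annotated start of any gene was that of a microRNA for 13 peaks and that of an ncRNA gene for 11, and 10 summits lay in windows of microRNA genes only. The most upstream genes of the loci had 9.01 summits per 100 loci in the 500 bp before the start, beside 6.40 per 100 protein-coding genes.

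Between 1500 and 2000 bp upstream, outside the window, the loci had 5.41 summits per 100, beside 1.36 per 100 protein-coding genes and 1.11 per 100 other non-coding genes. These were 12 summits at 11 loci: mir-1828, mir-235, mir-71, mir-72, mir-2216, mir-2215, mir-239.1, mir-2212 with 2, mir-800, mir-34 and let-7. Some are not separate from other genes or from each other. The mir-1828 peak (61.7) is also the promoter peak of its host pash-1, and gmps-1, the host of mir-2216, had a summit in its own promoter window. The 2 mir-2212 peaks overlap and have the same replicate signals (41.6 in replicate 1 and 28.6 in replicate 2). The mir-239.1 summit lies beyond mir-239.2. The strongest, at mir-2216, had a signal of 153, with 95.9 in replicate 1 and 53.9 in replicate 2. mir-34, a stress-response microRNA in worms, had 61.8, with 28.0 in replicate 1 and 32.3 in replicate 2, 1861 bp upstream of its start. A window of 2000 bp upstream gave 47 bound genes (18.0%), beside 7.87% of all genes and 11.0% of protein-coding genes. Some genes gained by it had summits nearer than 1500 bp, such as mir-353 at 1003 bp and mir-2221 at 1247 bp upstream.

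**Figure D5:**
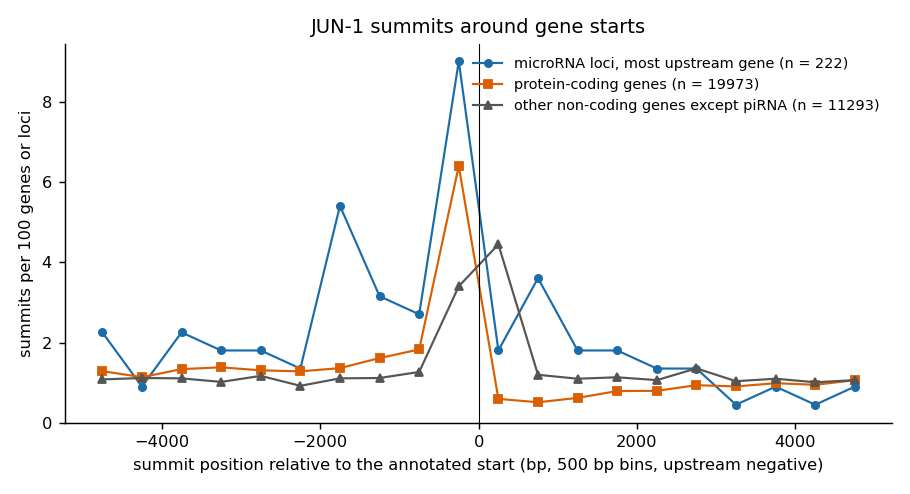
Number of IDR-thresholded summits per 100 loci or genes in 500 bp bins around the annotated start, with upstream negative. Circles are the most upstream gene of each of 222 microRNA loci, squares 19973 protein-coding genes and triangles 11293 other non-coding genes without piRNA; the microRNA line reaches 9.01 in the bin just before the start and 5.41 in the bin from -2000 to -1500, each microRNA bin resting on 20 summits or fewer.

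Motifs were counted in the 200 bp summit windows on both strands. The AP-1 element, TGACTCA or TGAGTCA, was in 2 of the 26 windows (7.69%), beside 4.90% of all 2305. The CRE element TGACGTCA was in 1 (3.85%, beside 1.52%). GAGAGAGA was in 6 (23.1%, beside 13.4%), at mir-8209, mir-90, mir-58.1, mir-53, mir-253 and the farther mir-52 peak. CACGTG was in 3 (11.5%, beside 7.90%), at mir-4929, mir-5595 and mir-54/55/56. CTGCGTCTC was in 2 (7.69%, beside 15.3%), at mir-8186.2 and the farther mir-52 peak. TGTTTAC was in 1 (3.85%, beside 3.90%), at mir-73/74. TGATAA was in 0, beside 20.3% of all windows, and in 2 when the window was 400 bp. TATAAA, added after the windows had been read, was in 6 (23.1%, beside 12.8%), at mir-2214, mir-238, mir-58.1, the nearer mir-52 peak, mir-241 and the weaker mir-239 peak.

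No motif searched contains another, and a window was counted once per motif however many matches it held. Most windows at microRNA genes thus held neither an AP-1 nor a CRE element, as did most of the 2305 windows. The windows were richer in G and C than those of the list as a whole, with a median of 51.0% (37.0% to 63.5%), beside 43.5% over all IDR-thresholded peaks. This difference in base composition stands beside the motif counts, and its part in them was not tested.

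The bound genes not yet described had middling or low signals. mir-71, which supports lifespan and survival of starved larvae, had 56.3, with 26.1 in replicate 1 and 30.4 in replicate 2, and mir-2 nearby had 38.4, with 24.9 and 14.3. mir-4929 had 52.4, with 28.8 and 22.3. mir-47 had 32.9, with 23.0 and 7.93. mir-253 had 30.1, with 21.3 and 10.4, and mir-8209, whose summit lay 69 bp downstream of its annotated start, had 30.1 with 15.3 and 12.4. The peaks at mir-8209, mir-253, mir-238, mir-73/74 and mir-47 lay close to the list's lowest signal of 28.4.

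Of the microRNA genes without an IDR-thresholded peak, the 5 with the strongest pooled peaks fell just under that limit. mir-60, an intestinal microRNA, had 27.5 in the pooled list, 11.2 in replicate 1 and 14.96 in replicate 2. mir-4934 had 25.97, mir-228, a glial microRNA, had 25.5, mir-5551 had 25.2 and mir-75 had 24.6. The highest pooled signal left out of the IDR-thresholded list was 28.4, so that membership of that list is a cut along a continuous range. Muscle mir-1 had 12.8 in the pooled list and neuronal mir-124 had 19.1. mir-250 had 8.08 and its neighbour mir-61, which acts in the vulva, had none in any list. mir-57, which acts in the posterior of the animal, had none either. mir-273, which acts in the taste neurons, had 4.98 and mir-70 had 5.01, both in replicate 1 only.

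Protein-coding genes of microRNA processing, silencing and larval timing, some of them microRNA targets, were counted from a list of 27, of which 26 were matched by symbol. A promoter summit was found at 12 of the 26, beside the 8.42% of protein-coding genes given above. The list was compiled with earlier results of these data known, which already included peaks at nhl-2 and puf-9, so the count is a description. nhl-2, a silencing cofactor, had 315, with 172 in replicate 1 and 142 in replicate 2. puf-9, a Pumilio-family repressor, had 304, with 186 and 116. The GW182-type gene ain-1 had 174, with 93.6 and 82.0, and vig-1, a component of the silencing complex, had 129, with 65.6 and 63.1.

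The others with a summit were cgh-1 (82.7), pab-2 (82.7), the Argonaute gene alg-5 (63.1), the Microprocessor gene pash-1 (61.7), the lin-4 target lin-14 (51.2), rde-4 (44.6), the deadenylase gene ccf-1 (35.9) and lin-28 (34.0). The Argonaute genes alg-1 and alg-2, the Drosha gene drsh-1 and the Dicer gene dcr-1 had none in the IDR-thresholded list. In the replicate lists alg-1 had 3.94 in replicate 1 and 4.57 in replicate 2, drsh-1 had 7.81 in replicate 1 only, dcr-1 had 5.78 in replicate 2 only, and alg-2 had none. The let-7 target lin-41 had none in the IDR-thresholded or replicate lists.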

How the data were processed

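ChIP-seq peak lists of eGFP-tagged JUN-1 in L1 larvae were analysed, from 2 replicates of 1 group with 1 shared control alignment. Each peak's signal and its −log10 q-value were deposited by the authors, in lists for each replicate, for the pooled replicates and, derived from these, an IDR-thresholded list, per the deposited notes on file provenance. The signal was used to describe and rank peaks within a list. The sources used here do not give the aligner, peak caller, IDR cutoff or signal scaling, and depth is unknown. The ce10 lists were not used here.

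Summits of the ce11 lists were placed in windows around starts from Ensembl release 115 with Python 3.11.15, numpy 2.4.6 and pandas 2.3.3. Window assignment was tested on simulated data. Sequences came from RefSeq WBcel235, and all 261 genes were matched to it by gene ID; 260 had an annotated mature arm. Symbols follow RefSeq. Context was read from protein-coding gene models. Shares carry 95% Wilson intervals, which cover counting error only. No column of unmapped samples was present. No test was made, since there is 1 group and microRNA genes are not replicates.

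The members, families, motifs and gene lists were chosen with earlier results of these data known. The text names let-7, lin-4 and lsy-6, every microRNA gene with an IDR-thresholded summit, the let-7, lin-4, mir-35, mir-51 and mir-58 families, 10 well-studied single genes, the 5 genes with the strongest pooled peaks outside the IDR-thresholded list, hosts and sharers of the peaks, and the list of processing, silencing and timing genes. mir-63 and the genes with summits farther upstream were named after their values were seen. Alternatives covered window size, stronger peaks, each replicate alone, interval overlap, the nearest start, locus gap and motif window. For each replicate alone, its 2305 strongest peaks replaced the IDR-thresholded list. The median signal was instead taken over the replicate's peaks overlapping those at microRNA genes. The hairpin start, TATAAA and the grouping by number were added after seeing the data. One mature sequence is not reported here.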

Additional observations from a re-analysis of the deposited data

How the results depend on the processing

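The count of 31 bound genes was 23 (8.81%, beside 4.34% of all genes) with a narrower window (500 bp upstream to 100 bp downstream). By interval overlap it was 34 (13.0%, beside 6.51%). It was 32 (12.3%, beside 5.90%) from hairpin starts. Among the 2305 strongest pooled peaks it was 31 (11.9%, beside 5.89%), but these peaks are the IDR-thresholded list itself, so this count could not differ. The count of bound genes moved by over 1.5 times with the wider window (47), the peaks above the list's median signal (16, beside 3.19% of all genes) and the nearest start only (12). The 26 peaks became 45 and 14 with the wider window and with those stronger peaks. The 2305 strongest peaks of 1 replicate alone gave 30 to 32 genes, 27 to 28 peaks and 24 to 26 loci, beside 5.74% to 5.82% of all genes. The median signal of 49.8 was set beside the replicate peaks that overlap the same 26 peaks. Their medians were 29.1 in replicate 1 and 19.5 in replicate 2, on each list's own scale. Without replicate 1, mir-238, mir-253, mir-47, mir-80 and mir-8209 were lost, leaving 1 gene of the mir-58 family, and mir-228, mir-4934, mir-60, mir-62, mir-75 and mir-8192 were gained. Without replicate 2, mir-73, mir-74 and mir-8209 were lost and mir-243 and mir-392 gained. Loci numbered 25 and 22 with gaps of 1000 and 10000 bp. Genes with a peak in both replicate lists fell from 88 to 24 when the 2305 strongest of each were used, and for neither count was the share over all genes taken. The let-7 family count was 2 with the wider window, which takes in the peak upstream of let-7. In 400 bp windows, CTGCGTCTC was in 4 of the 26 (15.4%, beside 17.7% of all windows), TGATAA in 2 (7.69%, beside 34.5%), TGTTTAC in 2 (7.69%, beside 6.20%) and TATAAA in 12 (46.2%, beside 31.7%). For the other alternatives, which make up 43 of 58 values, counts and shares moved by less than 1.5 times. The 43 include the strongest pooled peaks, which could not differ, and the median signal over peaks in no coding window, 46.3. That median was judged by a limit set from the gap between the replicate medians. Since these are on each list's own scale, the limit is not a spread of the median. No paired analysis was possible because there is 1 group. Without read counts, no counting error of a single signal can be given.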
